A study of Drosophila melanogaster with 9 samples.

Results

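The dpr and DIP genes are 2 families of cell-surface proteins of the immunoglobulin superfamily, and their promoters and gene bodies were examined in the open chromatin of Drosophila melanogaster ovaries and of a cultured ovarian somatic cell line. Members were all genes whose symbol in the Ensembl BDGP6 annotation is dpr with a number or DIP- with the name of a Greek letter, which gave 32 of 18277 annotated genes, 21 dpr and 11 DIP. They are called dpr and DIP genes throughout. The Beaten path proteins, to which they have been likened, form with the Sidestep proteins a separate immunoglobulin network and were used only for comparison (22 genes).

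Dpr stands for defective proboscis extension response, after the behaviour of dpr1 mutants, which fail to avoid salt. DIP stands for Dpr-interacting protein. Each Dpr carries a small ectodomain of immunoglobulin domains that binds to the ectodomain of particular DIPs on a neighbouring cell, and the pairs are known from the developing nervous system, where they help axons, dendrites and muscles to choose partners.

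ATAC-seq, in which a transposase cuts accessible DNA, had been made from 5 ovary and 4 cell libraries. The vas-GFP ovaries (n = 3, made from 6, 10 and 30 ovaries) came from a strain with an EGFP-tagged vas locus, written w[*]; TI{TI}vas[AID:EGFP], and the w1118 ovaries (n = 2, 6 ovaries each) from an untagged strain. The Δl(3)mbt OSCs (n = 2) lack l(3)mbt, whose product is a chromatin repressor of germline genes in the soma, and the wild-type (WT) OSCs (n = 2) are the ovarian somatic cell line itself. OSCs grow without germ cells, whereas a whole ovary holds germ cells, follicle cells and the muscle sheath. All animals and both cell lines are female. Each cell genotype is a single purchased line, each ovary library pools several ovaries, and the ages of the flies were not given in the sources used here.

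The value of a promoter was the highest fold enrichment (pileup over local background, a ratio) among the peaks of a library within 1 kb of any transcription start site (TSS). The number of peaks was 16588 to 22557 in vas-GFP ovaries, 24890 and 23170 in w1118 ovaries, 36659 and 27067 in Δl(3)mbt OSCs and 59420 and 22037 in WT OSCs, so that WT OSC library 1 stood apart from its replicate. The depth in reads was not given by these lists. The 6 follicle cell markers and 8 housekeeping genes had a promoter peak in all 9 libraries. Of 9 germline genes matched, 8 had one in each ovary library and 5 to 7 in the OSC libraries. Of 14 neuronal markers, 1 or 2 had a promoter peak in an ovary library, against 8 and 7 in Δl(3)mbt OSCs and 12 and 3 in WT OSCs. In a whole ovary, fewer cells with an open site and less accessibility per cell cannot be told apart.

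The promoters with the clearest difference between ovaries and OSCs are shown first, as the reference sequence up to 100 bases either side of the summit and upstream of the TSS (dm6, plus strand, RefSeq copy of the assembly). Capitals mark any match, on either strand, to 4 motifs: CCGTTA (the motif of the germline factor Ovo), TCAGT (the initiator of many fly promoters), GAGAG (GAGA factor) and TGCTGA (the core bound by Maf factors such as Traffic jam). The dpr16 window lies at chr3R:5150683-5150883, the dpr17 window at chr3R:12094635-12094835, the DIP-kappa window at chr2L:13717321-13717459 and the dpr8 window at chrX:14321958-14322158. The DIP-iota window, the ovary peak of that gene, lies at chr2L:6622090-6622290. None of the matches overlapped another.
dpr16: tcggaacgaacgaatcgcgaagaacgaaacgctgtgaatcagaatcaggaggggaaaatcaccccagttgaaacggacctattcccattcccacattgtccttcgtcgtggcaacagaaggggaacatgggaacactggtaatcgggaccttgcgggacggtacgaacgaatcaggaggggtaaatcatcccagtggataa
dpr17: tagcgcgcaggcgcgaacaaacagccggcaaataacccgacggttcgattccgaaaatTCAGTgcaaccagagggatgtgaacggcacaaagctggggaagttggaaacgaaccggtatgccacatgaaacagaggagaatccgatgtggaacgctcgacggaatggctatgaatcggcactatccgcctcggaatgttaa
DIP-kappa: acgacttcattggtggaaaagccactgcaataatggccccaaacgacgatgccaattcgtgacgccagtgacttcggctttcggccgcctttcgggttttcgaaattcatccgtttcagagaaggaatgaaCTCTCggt
dpr8: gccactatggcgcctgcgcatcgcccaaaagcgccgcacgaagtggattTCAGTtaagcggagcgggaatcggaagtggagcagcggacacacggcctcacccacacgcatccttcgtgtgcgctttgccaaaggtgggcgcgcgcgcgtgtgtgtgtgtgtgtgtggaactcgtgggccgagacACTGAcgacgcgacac
DIP-iota: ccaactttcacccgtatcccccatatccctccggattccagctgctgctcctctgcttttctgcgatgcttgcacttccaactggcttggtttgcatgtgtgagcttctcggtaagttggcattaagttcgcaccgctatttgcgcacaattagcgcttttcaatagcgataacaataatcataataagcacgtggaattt

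TCAGT was found once in the dpr17 window and 2 times in the dpr8 window, and GAGAG once in the DIP-kappa window, as its reverse complement. The dpr16 and DIP-iota windows held none of the 4. Among the 44 fitted regions at promoters of dpr and DIP genes, 45.5% of the 201-base windows around the summit held TCAGT, against 30.0% of the 39877 windows of all fitted regions. CCGTTA was in 3 of those 44 windows (6.82%, against 4.80% of all windows), at dpr6, DIP-theta and DIP-epsilon. TGCTGA was in 2 of the 44 (4.55%, against 13.9%) and GAGAG in 29.5%, against 29.1%. The windows of all fitted regions were not limited to promoters, and promoter windows of other genes were not counted. These gaps are therefore not shown to belong to the family. Over all 161 fitted regions in dpr and DIP genes or at their promoters, TCAGT was in 31.7%, TGCTGA in 13.7% and CCGTTA in 2.48%. GAGAG was in 33 of the 161, a smaller share than in all windows. These matches are descriptions of the letters and not of binding.

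Fewer of the family than of all genes had an accessible promoter in ovaries. A promoter peak was present at 12, 9 and 9 of the 32 genes in vas-GFP ovaries and at 11 and 12 in w1118 ovaries, which is 28.1% to 37.5%, whereas 46.0% to 55.9% of all genes had one. In OSCs the count was 20 and 19 in Δl(3)mbt and 24 and 9 in WT libraries. The corresponding shares of all genes were 64.2% and 57.2% in Δl(3)mbt and 79.8% and 53.0% in WT OSCs, so that WT OSC library 2, with 28.1% of the family, lay below all genes as the ovary libraries did. With equal numbers of peaks per library, the family lay below all genes in each OSC library as well. It was then at 43.8% and 34.4% in Δl(3)mbt and 43.8% and 28.1% in WT OSCs, against 49.2%, 49.9%, 48.9% and 48.8% of all genes. In ovaries it was then at 21.9% to 34.4%, against 46.0% to 49.9%. These shares were not tested. The Beaten path and Sidestep families had peaks at 3 to 6 of 22 promoters in ovary libraries and at 10 to 17 in OSC libraries.

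**Figure D1:**
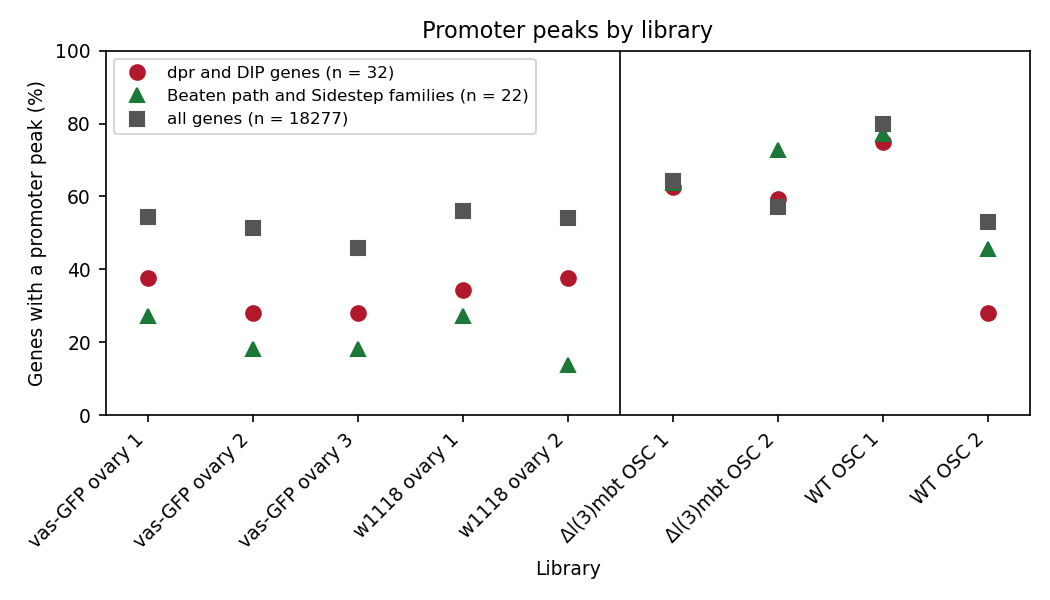
Share of genes with a promoter peak (vertical axis, %) in each of the 9 libraries (horizontal axis), for the 32 dpr and DIP genes (circles), the 22 Beaten path and Sidestep genes (triangles) and all 18277 genes (squares). In the ovary libraries the circles lie between 28.1% and 37.5% and the squares between 46.0% and 55.9%.

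Of the 32 genes, 5 had a promoter peak in every library (15.6%, against 39.7% of all genes): dpr1, dpr8, dpr14, dpr19 and DIP-epsilon. Another 4 had none in any library (12.5%, against 15.3% of all genes): dpr4, dpr7, dpr15 and dpr21. At dpr19, counted among the 5, every ovary peak had its summit nearest to the TSS of a neighbour, CG33303. A promoter peak in all 4 OSC libraries and no ovary library was found at dpr16, dpr17 and DIP-kappa (432 of all 18277 genes, 2.36%, had this pattern). The opposite pattern was found at 0 of the 32 genes and at 0.673% of all genes. The merged peak lists of the 4 groups gave 12 genes in vas-GFP and 11 in w1118 ovaries, 20 in Δl(3)mbt and 24 in WT OSCs.

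**Figure D2:**
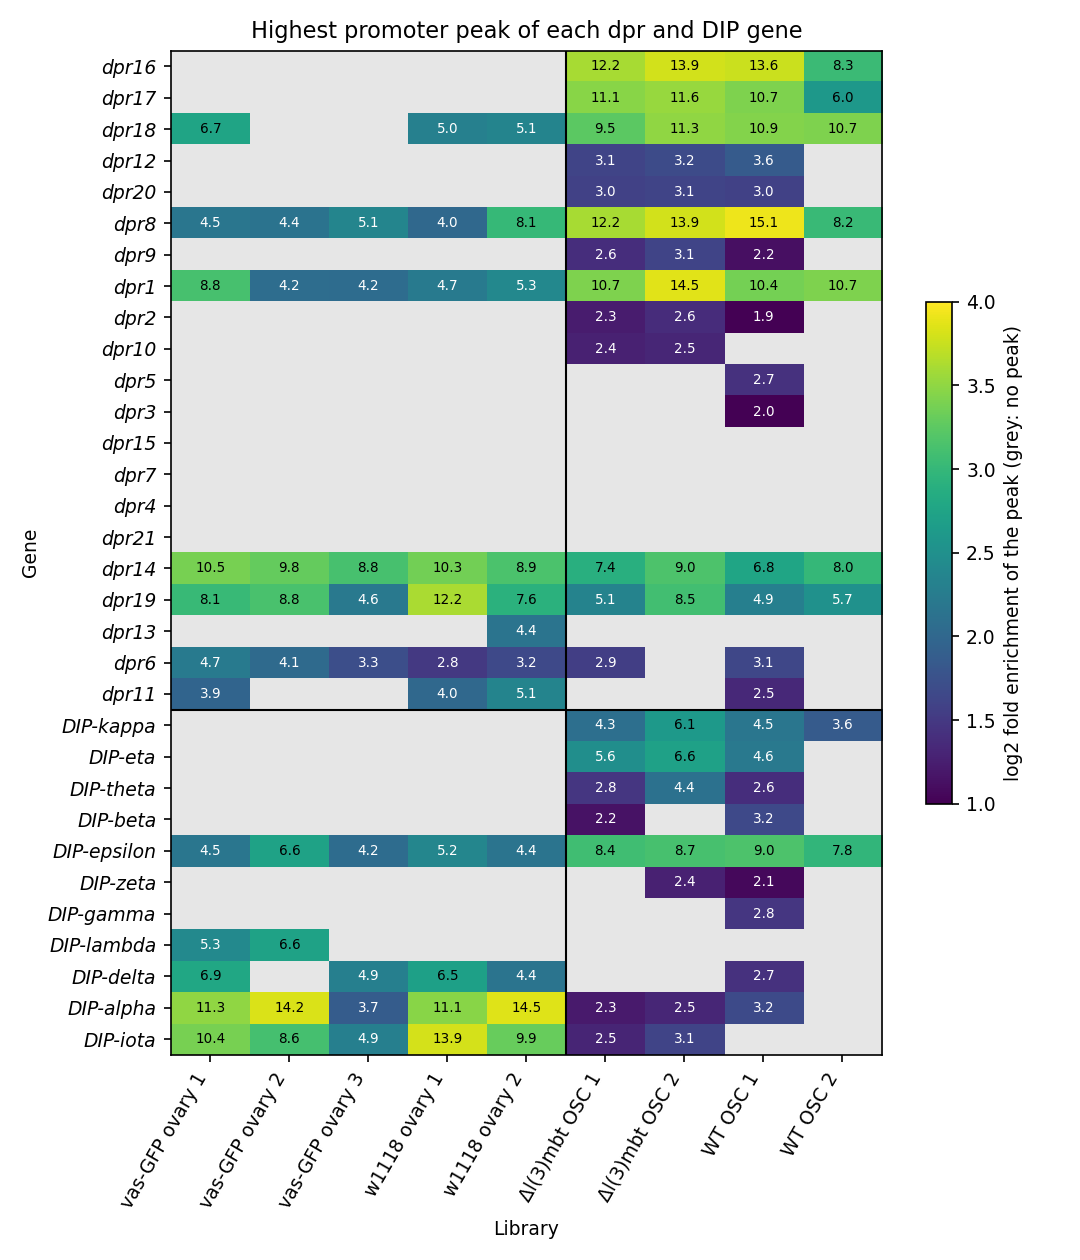
Highest promoter peak of each dpr (upper block) and DIP gene (lower block) in each library, with the fold enrichment printed in the cell, its log2 as colour and grey for no peak. Within a block the genes run from those most in favour of OSCs to those most in favour of ovaries, and dpr16, dpr17 and DIP-kappa are grey in all 5 ovary libraries and filled in all 4 OSC libraries.

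Whether a promoter differed between materials was tested with limma on log2 fold enrichment over all 12983 genes with a promoter peak in at least 2 libraries. A library without a peak was given a fold enrichment of 1, and measured values were centred on the median of the genes with a peak in all 9 libraries, since raw fold enrichments ran higher in ovaries at most promoters. A call needed a Benjamini-Hochberg adjusted p below 0.05 and a difference of at least 1.5-fold. Of the 32 genes 24 could be fitted, of which 12 passed the filter through peaks in OSC libraries only, 1 through peaks in ovaries only and 11 through both. Of all genes fitted, 17.2% had peaks in OSCs only. Promoters of 14 genes were called lower in ovaries than in OSCs (the background was 15.6% of all genes tested) and that of 1 gene, DIP-iota, was called higher (background 7.58%). Of the 14, 10 had peaks in OSCs only (dpr2, dpr9, dpr10, dpr12, dpr16, dpr17, dpr20, DIP-eta, DIP-theta and DIP-kappa). Since such genes could differ in 1 direction only, and were set to 1 in ovaries, their calls are a description of where peaks were listed. Among the 11 genes with peaks in both materials, 4 were called lower (dpr1, dpr8, dpr18 and DIP-epsilon), against 10.9% of all genes with peaks in both, and DIP-iota higher, against 7.63%. Without centring, 14 were lower and 3 higher, while 82.0% of the calls over all genes were then higher in ovaries, against 32.8% with it.

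The calls lower in ovaries fell into 7 genes that were called under each of the 22 alternative settings (dpr1, dpr8, dpr16, dpr17, dpr18, DIP-epsilon and DIP-kappa) and 7 that were not under at least 1 (dpr2, dpr9, dpr10, dpr12, dpr20, DIP-eta and DIP-theta). Of the first 7, dpr16, dpr17 and DIP-kappa had peaks in OSCs only, so under any setting their calls describe where peaks were listed. All settings draw on the same 9 libraries and give no independent support. The call for DIP-iota was kept under all 22. Without 1 of the vas-GFP libraries the 14 calls numbered 8, 8 and 9 (backgrounds then 14.2%, 11.5% and 13.5%), without 1 of the w1118 libraries 7 and 7 (9.82% and 8.99%), and without 1 of the Δl(3)mbt libraries 7 and 7 (11.3% and 10.9%), so that the share over all genes fell as well.

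**Figure D3:**
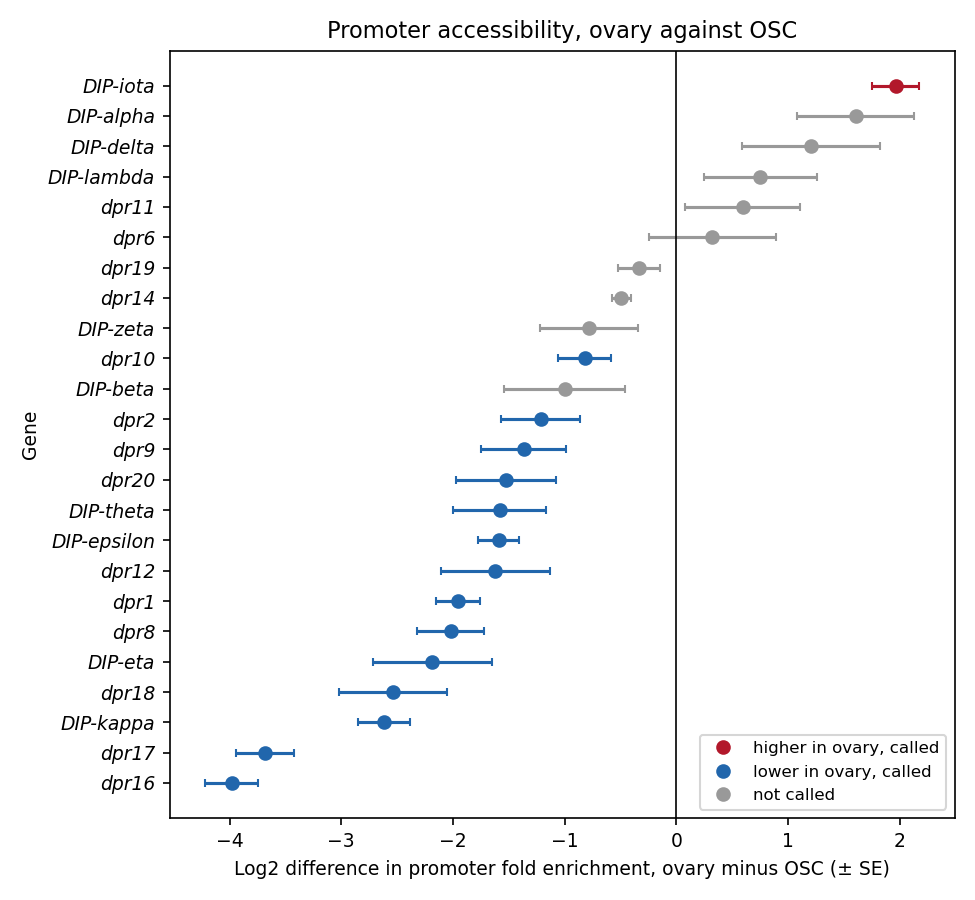
Difference in log2 promoter fold enrichment, ovary minus OSC, with its standard error (horizontal axis), for the 24 genes that could be fitted, called higher (red), called lower (blue) or not called (grey) in ovaries. DIP-iota is at 1.97 and the lowest gene, dpr16, at -3.98.

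The strongest differences were at ligand genes whose known partner in flies is DIP-gamma, the receptor that pairs with Dpr11, Dpr15, Dpr16 and Dpr17 and is known from the matching of R7 photoreceptors with their target neurons. The promoter of dpr16 had no peak in any ovary library, against fold enrichments of 12.2 and 13.9 in Δl(3)mbt OSCs and 13.6 and 8.26 in WT OSCs (log2 difference -3.98 ± 0.24 SE, limma adjusted p = 6.62e-05). The promoter of dpr17 likewise had no peak in ovaries, against 11.1 and 11.6 in Δl(3)mbt OSCs and 10.7 and 6.04 in WT OSCs (-3.68 ± 0.26, limma adjusted p = 0.000113). The summits lay upstream of the first TSS, 125 to 267 bases from it at dpr16 and 35 to 141 bases at dpr17, and no other gene starts within 1 kb. These differences depend on the value of 1 given to libraries without a peak and are therefore no bound on the fold. The other members of the group differed from these: dpr15 had no promoter peak in any library, DIP-gamma had one in WT OSC library 1 alone (2.78), and dpr11 had peaks of 3.91 in vas-GFP ovary library 1 and of 4.04 and 5.09 in w1118 ovaries, against no peak in Δl(3)mbt OSCs and 2.53 in WT OSC library 1. The dpr11 promoter was not called (0.59 ± 0.52, limma adjusted p = 0.39), and its 3 ovary peaks were 73 to 95 bases wide with summits 608 to 655 bases from the TSS.

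At dpr18 and dpr8 the promoter was accessible in both materials but more so in OSCs. The dpr18 promoter had a peak of 6.72 in vas-GFP library 1 and none in the other 2 vas-GFP libraries, 4.95 and 5.09 in w1118 ovaries, against 9.50 and 11.3 in Δl(3)mbt OSCs and 10.9 and 10.7 in WT OSCs (-2.54 ± 0.48, limma adjusted p = 0.00718). The dpr8 promoter had 4.53, 4.42 and 5.13 in vas-GFP ovaries and 4.04 and 8.05 in w1118 ovaries, against 12.2 and 13.9 in Δl(3)mbt OSCs and 15.1 and 8.20 in WT OSCs (-2.02 ± 0.30, limma adjusted p = 0.00227). No ovary library reached the lowest OSC library at either promoter, although at dpr8 w1118 library 2 and WT OSC library 2 lay close together. How many of all genes were without such overlap was not counted. The dpr8 TSS is 5076 bases from the nearest other TSS, whereas that of dpr18 is 840 bases from that of CG12395.

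The promoter of dpr1, the founding member of the family and required for the avoidance of salt, had 8.75, 4.22 and 4.15 in vas-GFP ovaries and 4.69 and 5.26 in w1118 ovaries, against 10.7 and 14.5 in Δl(3)mbt OSCs and 10.4 and 10.7 in WT OSCs (-1.95 ± 0.19, limma adjusted p = 0.000377). Ovary and OSC values did not overlap, which was not set against the share of all genes without overlap. The other 2 genes open everywhere in the dpr family, dpr14 and dpr19, face a neighbour. The 2 TSSs of dpr14 lie 645 and 1117 bases from that of spidey on the other strand, and its promoter values were 8.76 to 10.5 in vas-GFP ovaries, 8.88 and 10.3 in w1118 ovaries, 7.43 and 8.97 in Δl(3)mbt OSCs and 6.79 and 7.99 in WT OSCs. After centring this was a difference of -0.49 ± 0.08 (limma adjusted p = 0.00424), below 1.5-fold and not called. The dpr19 promoter, 411 and 721 bases from the TSS of CG33303, had 4.64 to 8.84 in vas-GFP ovaries, 7.56 and 12.2 in w1118 ovaries, 5.09 and 8.53 in Δl(3)mbt OSCs and 4.89 and 5.74 in WT OSCs. After centring, which lowered ovary values and raised OSC values, its difference was -0.33 ± 0.19 (limma adjusted p = 0.202). It reached 0.47 under 1 of the alternative settings. In every library the highest peak, whose value is given here, had its summit nearest to the TSS of spidey at dpr14 and of CG33303 at dpr19. When each peak was counted for the gene of the nearest TSS alone, an alternative added after seeing the data, dpr19 was called lower in ovaries (-2.13).

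Ligands of DIP-alpha, the receptor of motor neurons that pairs with Dpr6 and Dpr10, had weak promoter peaks at most. The dpr6 promoter had peaks of 4.67, 4.12 and 3.31 in vas-GFP ovaries and 2.83 and 3.16 in w1118 ovaries, against 2.94 in Δl(3)mbt OSC library 1 and 3.10 in WT OSC library 1 and none in the other 2 OSC libraries (0.32 ± 0.57, limma adjusted p = 0.679). The dpr10 promoter, whose product marks muscle in the embryo and larva, had peaks of 2.43 and 2.50 in Δl(3)mbt OSCs and none elsewhere, and its call, lower in ovaries (-0.82 ± 0.24), rests on those 2 peaks, 73 and 78 bases wide. With WT OSCs alone as the reference, its difference was 0. Muscle markers were open in ovaries at 7 to 9 of 10 promoters in vas-GFP and 6 and 5 in w1118 libraries, against 4 to 9 in OSC libraries, and their part in these results was not tested.

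The promoter of dpr12, the ligand of DIP-delta in the mushroom body, had 3.05 and 3.21 in Δl(3)mbt OSCs and 3.62 in WT OSC library 1, and no peak in ovaries or in WT OSC library 2 (-1.62 ± 0.48). The promoters of dpr20, dpr9 and dpr2 had the same 3 OSC libraries with a peak, at 2.98 to 3.06, 2.18 to 3.06 and 1.89 to 2.59. The calls of all 4 as lower in ovaries rest on weak peaks that WT OSC library 2, with the fewest peaks of the OSC libraries, lacked. Single peaks were seen at dpr3 (1.99) and dpr5 (2.68) in WT OSC library 1 and at dpr13 (4.44) in w1118 library 2.

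Among the receptors, DIP-iota was the 1 gene of the family called higher in ovaries, and another 5 had positive differences without a call (DIP-alpha, DIP-delta, DIP-lambda, dpr11 and dpr6). Its promoter had 10.4, 8.64 and 4.89 in vas-GFP ovaries and 13.9 and 9.86 in w1118 ovaries, against 2.48 and 3.06 in Δl(3)mbt OSCs and no peak in WT OSCs (1.97 ± 0.21, limma adjusted p = 0.000522). Every ovary library was above every OSC library in raw fold enrichment, which ran higher in ovaries at most promoters. The share of all genes without overlap between materials, here and at dpr1, dpr8, dpr18 and DIP-epsilon, was not counted. The ovary and OSC peaks were at different places, since the strongest ovary peaks had summits 490 to 603 bases upstream of the TSS and the OSC peaks 1140 and 1141 bases away, at the edge of the window and 272 and 271 bases from the TSS of the neighbouring gene CG34345. The ovary region itself, 378 bases wide, was open in all 5 ovary libraries and no OSC library (2.91 ± 0.20, limma adjusted p = 6.41e-05). This difference depends on the value of 1 given to the OSC libraries.

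DIP-alpha also had high promoter values in ovaries, of 11.3, 14.2 and 3.67 in vas-GFP and 11.1 and 14.5 in w1118 libraries, against 2.32 and 2.50 in Δl(3)mbt OSCs and 3.18 in WT OSC library 1. This difference was not called (1.61 ± 0.52, limma adjusted p = 0.0524), it was called higher under 7 of 20 alternative settings, and it was -0.36 when each peak was counted for the gene of the nearest TSS alone. The high values came from an intronic region, with its summit 1087 bases inside the gene and 1058 bases from the TSS of ppk8, that was open in all 9 libraries but reached the promoter window with its strongest peak in 4 ovary libraries only. It had 11.3, 14.2 and 7.76 in vas-GFP ovaries and 11.1 and 14.5 in w1118 ovaries, against 4.18 and 6.30 in Δl(3)mbt OSCs and 4.04 and 4.23 in WT OSCs. As a region it was called higher in ovaries by a small margin (0.63 ± 0.18, limma adjusted p = 0.0358). The promoter of DIP-delta, the partner of Dpr12, had 6.88 and 4.89 in vas-GFP libraries 1 and 3 and 6.51 and 4.44 in w1118 ovaries, against 2.68 in WT OSC library 1 alone (1.21 ± 0.62, limma adjusted p = 0.187). Its ovary peaks, at the second TSS, were 73 to 93 bases wide. DIP-lambda had peaks of 5.31 and 6.63 in vas-GFP libraries 1 and 2 and none in the other 7 libraries.

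The remaining receptors were open in OSCs or in few libraries. DIP-epsilon had 4.53, 6.63 and 4.15 in vas-GFP ovaries and 5.21 and 4.44 in w1118 ovaries, against 8.44 and 8.74 in Δl(3)mbt OSCs and 8.97 and 7.83 in WT OSCs (-1.59 ± 0.18, limma adjusted p = 0.000678), with no overlap between materials and with the TSS of CG13982 at 989 bases. The peaks of 6.63 and 5.21 had summits 13 and 28 bases from the TSS of CG13982. In those libraries the peaks nearest to the DIP-epsilon TSS had 3.82 and 4.30. With each peak counted for the gene of the nearest TSS alone, the difference was -1.78. DIP-kappa had no ovary peak, against 4.29 and 6.13 in Δl(3)mbt OSCs and 4.52 and 3.63 in WT OSCs (-2.61 ± 0.23, limma adjusted p = 0.00027), with summits 4 to 39 bases from the TSS. DIP-eta had peaks of 5.58 and 6.58 in Δl(3)mbt OSCs and 4.62 in WT OSC library 1 (-2.18 ± 0.53). DIP-theta had 2.79 and 4.35 in Δl(3)mbt OSCs and 2.63 in WT OSC library 1 (-1.58 ± 0.42). Neither had a peak in ovaries or in WT OSC library 2. DIP-beta and DIP-zeta had weak peaks in 2 OSC libraries each and were not called.

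The related Beaten path and Sidestep families, whose members guide motor axons, gave 13 promoters lower in ovaries and none higher among the 16 that could be fitted. Other surface proteins of the immunoglobulin or leucine-rich kind gave 8 lower and 1 higher (Fas2) of 17, and neuronal markers 4 lower (Sh, brp, cac and para) and none higher of 8. Glial markers gave 2 lower of 3, muscle markers 3 lower and 1 higher of 9, hemocyte markers 1 lower of 4, follicle cell markers 1 higher of 6 and germline genes 2 lower and 2 higher of 9. Housekeeping genes gave no call in either direction among 8. Backgrounds over all genes tested were 15.6% lower and 7.58% higher. Of the genes called lower, beat-IIIa, beat-IIIb, beat-IIa, beat-Ia, beat-VII, beat-Vc, side and side-II had peaks in OSCs only. The same held for Ama, wrapper, brp, cac, para and bgcn, whereas bt and AGO3, called higher, had peaks in ovaries only. Those calls rest on the value of 1 given to the other material. No test compared these lists with the dpr and DIP genes.

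Gene bodies of the dpr and DIP genes are long, together 1537 kb outside the promoter windows, and held few peaks. The density in ovaries was 0.189, 0.137 and 0.0911 peaks per 10 kb in vas-GFP and 0.202 and 0.143 in w1118 libraries, against 0.924, 0.811 and 0.595 and 0.982 and 0.936 for protein-coding genes in the same libraries. In OSCs it was 0.827 and 0.358 in Δl(3)mbt and 2.19 and 0.234 in WT libraries, against 2.09, 1.06, 4.28 and 0.858 for protein-coding genes in the same order. The family thus lay below protein-coding genes in each of the 9 libraries. The Beaten path and Sidestep families and the neuronal markers did so too. Beaten path and Sidestep genes had 0.186 to 0.371 in ovaries and 0.917, 0.524, 2.25 and 0.175 in OSCs, in the same order. Neuronal markers had 0.11 to 0.29 in ovaries and 1.19, 0.332, 2.34 and 0.177 in OSCs. DIP-lambda alone made up 378080 of the 1536675 bases of the dpr and DIP genes, with 0 to 8 peaks in a library. DIP-alpha held 5 to 13 of the 14 to 31 gene-body peaks of an ovary library, more than any other member. In OSCs it held 13 and 10 in Δl(3)mbt and 26 and 8 in WT libraries, beside 16 and 7 and 44 and 5 in dpr8, and 15 and 10 and 33 and 9 in dpr12. DIP-beta had no gene-body peak in ovaries, against 21 and 5 in Δl(3)mbt and 23 and 2 in WT OSCs.

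Peaks were next merged over the 9 libraries into regions, of which 471 lay in dpr and DIP genes or at their promoters. As many as 310 were found in a single library, 260 of them in WT OSC library 1, and the 161 found in at least 2 libraries were tested within the fit of all 39910 such regions. Of the 161, 44 lay at promoters and 117 in gene bodies, mostly introns (92). They passed the filter through peaks in OSCs only at 111 regions, in ovaries only at 21 and in both at 29 (68.9%, 13.0% and 18.0%, against 39.0%, 14.7% and 46.3% of all regions fitted). In ovaries 64 were called lower than in OSCs (background 22.7%) and 14 higher (background 12.2%). Of the 64, 55 had peaks in OSCs only, and of the 14, 13 in ovaries only, and these calls rest on the value of 1 given to the other material. Of the 29 regions with peaks in both, 9 were called lower (31.0%, against 13.2% of all such regions) and 1 higher (3.45%, against 8.70%). Without WT OSC library 2 the lower calls numbered 117 (background then 44.4%), without 1 of the w1118 libraries 38 and 37 (14.0% and 13.5%), and without 1 of the Δl(3)mbt libraries 36 and 35 (19.0% and 15.7%). The higher calls numbered 9 without vas-GFP library 2 (10.1%), 8 and 7 without 1 of the w1118 libraries (7.64% and 7.19%), 8 and 8 without 1 of the Δl(3)mbt libraries (11.5% and 9.07%) and 8 and 9 without 1 of the WT OSC libraries (14.0% and 12.0%), with the background of each in parentheses. The largest number of regions lower in ovaries was in dpr8 (10 of 20 fitted), followed by dpr12 (9 of 16) and dpr17 (6 of 6).

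**Figure D4:**
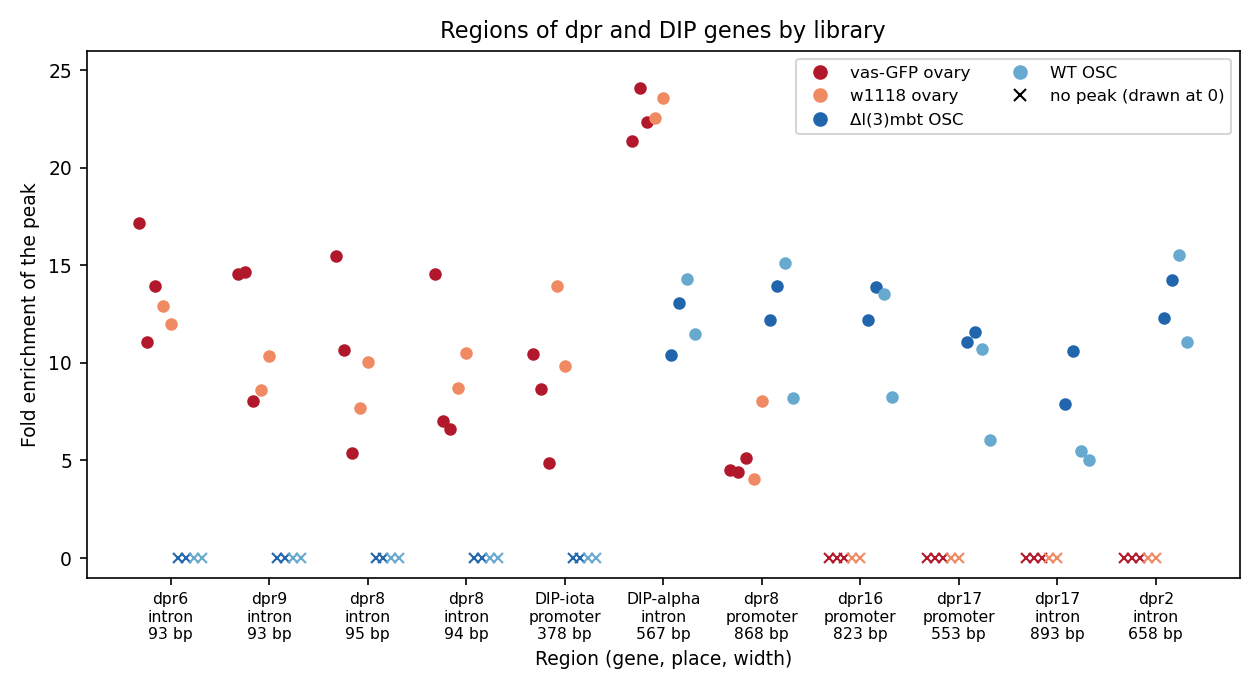
Fold enrichment (vertical axis) in each library of 11 regions in dpr and DIP genes (horizontal axis, with the width of each region), as points for vas-GFP (dark red) and w1118 ovaries (orange) and for Δl(3)mbt (dark blue) and WT OSCs (light blue), with crosses at 0 for libraries without a peak. The first 5 regions have points from ovaries only and the last 4 from OSCs only, and the DIP-alpha intron reaches 24.1 in vas-GFP library 2.

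Regions open in OSCs and in no ovary library included introns. In dpr17, an intronic region 893 bases wide, 3619 bases downstream of a TSS, had 7.91 and 10.6 in Δl(3)mbt OSCs and 5.46 and 5.04 in WT OSCs (-3.17 ± 0.13, limma adjusted p = 1.93e-05). In dpr2 the largest difference of the family was in an intron (-4.10 ± 0.17, limma adjusted p = 1.93e-05), where a region had 12.3 and 14.2 in Δl(3)mbt OSCs and 15.5 and 11.1 in WT OSCs and no peak in ovaries, but its summit is 127 bases from the TSS of the nested gene CG14072. In these dpr17 and dpr2 regions every ovary value was the 1 given to a library without a peak. Their differences, errors and p-values compare measured values with that constant and depend on it. The strongest region of all, in an intron of DIP-alpha, had 21.4, 24.1 and 22.3 in vas-GFP ovaries and 22.6 and 23.6 in w1118 ovaries, against 10.4 and 13.1 in Δl(3)mbt OSCs and 14.3 and 11.5 in WT OSCs, and after centring it was not called (0.19 ± 0.15, limma adjusted p = 0.289). Its summit is 22 bases from the TSS of lncRNA:CR34335. Of the 117 regions in gene bodies, 17 had their summit within 1 kb of the TSS of another gene.

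The regions higher in ovaries were of an unusual shape. Of the 14, 10 were at most 100 bases wide, in introns of dpr3, dpr6, dpr8, dpr9, dpr21 and DIP-alpha and at DIP-delta. The other 4 lay in DIP-iota and DIP-alpha. A region in an intron of dpr6, 93 bases wide, had 17.2, 11.1 and 13.9 in vas-GFP ovaries and 12.9 and 12.0 in w1118 ovaries and no peak in OSCs (3.38 ± 0.14, limma adjusted p = 1.92e-05). In an intron of dpr9 a region of the same width had 14.5, 14.7 and 8.07 in vas-GFP ovaries and 8.60 and 10.4 in w1118 ovaries (3.08 ± 0.18, limma adjusted p = 3.86e-05). Each of these peaks had the same first and last base in all 5 ovary libraries, as had those in 2 introns of dpr8, 95 and 94 bases wide, at 5.38 to 15.5 and 6.60 to 14.5 in ovaries.

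These 2 regions are printed whole, because every ovary library gave them the same ends, as dm6 sequence of the plus strand at chr3L:10070284-10070376 (dpr6) and chr3R:15059734-15059826 (dpr9), with the 4 motifs searched as above and capitals for a match.
dpr6 intron: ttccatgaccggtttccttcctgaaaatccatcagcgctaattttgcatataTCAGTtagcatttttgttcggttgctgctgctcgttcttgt
dpr9 intron: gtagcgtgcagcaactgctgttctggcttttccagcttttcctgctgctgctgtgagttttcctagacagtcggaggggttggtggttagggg

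Across the genome, 1732 regions were open in all 5 ovary libraries and no OSC library. Of these 34.2% were at most 100 bases wide and 27.0% had the same ends in all 5, whereas of 2818 regions open in all 4 OSC libraries and no ovary library 0.355% were that narrow and 0.071% had the same ends in all 4. In dpr and DIP genes 6 of 7 regions of the ovary kind were that narrow and had the same ends, and none of 22 of the OSC kind. When peaks of 100 bases or narrower were left out, a step chosen after seeing the data, 3 regions of the family remained higher in ovaries (background then 11.1%). The promoters lower in ovaries then numbered 12 and DIP-iota remained the 1 called higher. What gives rise to peaks with fixed ends was not tested.

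**Figure D5:**
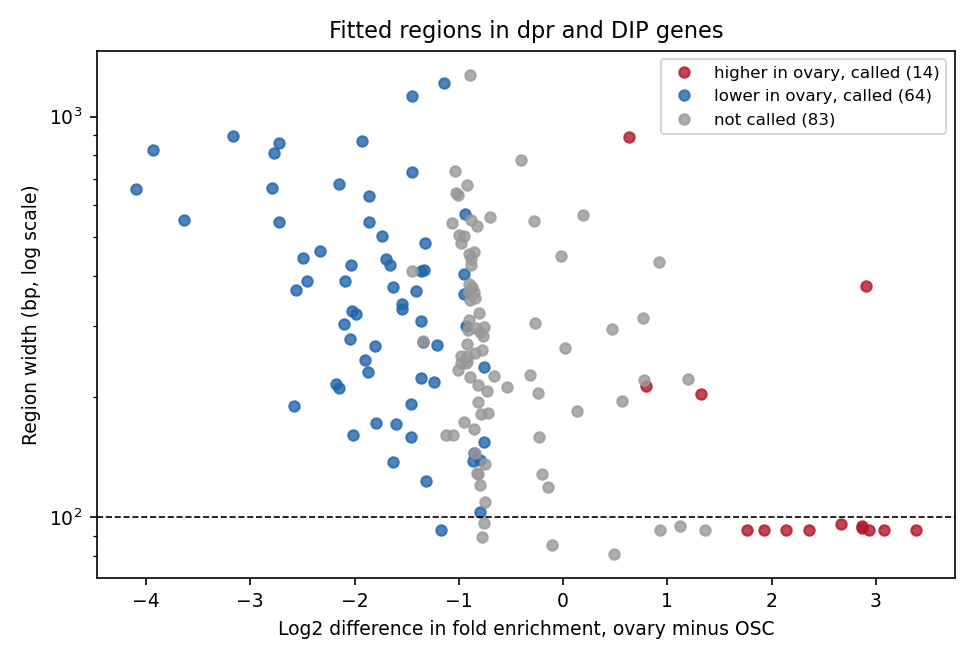
Width of the 161 fitted regions in dpr and DIP genes (vertical axis, bases, log scale) against their log2 difference in fold enrichment, ovary minus OSC (horizontal axis), for regions called higher (red, 14), lower (blue, 64) or not called (grey, 83). The dashed line is at 100 bases, and 10 of the 14 red points lie under it, against 1 of the 64 blue points.

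Loss of l(3)mbt was compared next, to ask whether the family opened in somatic cells that lack this repressor. No promoter of the 24 was called with limma in Δl(3)mbt against WT OSCs, in either direction (background 0.0308% higher and 0.0154% lower), and at an unadjusted p below 0.05 there were 2 higher and none lower, against 1.70% and 1.79% of all genes. These were dpr10 (1.64 ± 0.35, limma adjusted p = 0.19) and DIP-iota, with 2.48 and 3.06 in Δl(3)mbt OSCs and no peak in WT OSCs (1.80 ± 0.31, limma adjusted p = 0.14), from the peaks that lie nearer to the TSS of CG34345. At the promoters strongest in OSCs the differences were smaller than their standard errors, 0.13 ± 0.35 at dpr16, 0.32 ± 0.39 at dpr17, 0.06 ± 0.45 at dpr8 and 0.07 ± 0.29 at dpr1. With 2 libraries a group, such errors leave room for differences in either direction. Without WT OSC library 1, which has the most peaks, 7 promoters were called higher in Δl(3)mbt OSCs (background then 4.34%), and 1 without WT OSC library 2 (background then 0.673%).

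Of the 161 regions, 8 were called higher (background 2.52%) and 2 lower (background 1.4%) in Δl(3)mbt OSCs. Each had peaks in both libraries of 1 genotype and in no other library of the series, at low fold enrichments of 2.02 to 3.87, so that each entered the fit through the genotype where it was high and its call rests on the value of 1 given to the other. None of the 124 regions with peaks in both genotypes was called. The largest were at dpr20, 771 bases upstream of its TSS, with 3.00 and 3.06 in Δl(3)mbt OSCs and no peak in WT OSCs, and in the 3′ UTR of dpr4, with 2.27 and 3.87 and no peak in WT OSCs. In a coding exon of dpr13 the order was the reverse, with no peak in Δl(3)mbt OSCs, against 2.83 and 2.62 in WT OSCs. When libraries without a peak were set to the lowest fold enrichment they list, none of the 10 calls was left. Without either w1118 library none of the 8 higher calls was left. Without either Δl(3)mbt library these 8 regions had a peak in 1 library only and were not fitted, so they could not be called. Without WT OSC library 1 and without library 2 the higher calls numbered 32 and 13.

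The strains were compared last. No promoter of the 24 and no region of the 161 was called with limma between vas-GFP and w1118 ovaries (backgrounds of 0.0693% higher and 0.0231% lower for promoters and 0.226% higher and 1.53% lower for regions). At an unadjusted p below 0.05, 1 promoter was higher, dpr14 (0.33 ± 0.11, limma adjusted p = 0.539), and none lower, against 3.47% and 4.63% of all genes. Of the regions, 4 were higher (2.48%, against 2.16% of all regions) and 2 lower (1.24%, against 4.43%). The vas-GFP libraries also differ from each other in the number of ovaries, and of the promoter peaks of vas-GFP library 1 (6 ovaries), library 2 (10 ovaries) lacked those of dpr18, dpr11 and DIP-delta and library 3 (30 ovaries) those of dpr18, dpr11 and DIP-lambda.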

How the data were processed

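ATAC-seq was performed by the authors on intact ovaries and on OSCs. Per the labels and the methods, the processing used cutadapt 1.18 for trimming, BWA for alignment to dm6, Picard 2.9.0 for duplicates, SAMtools 1.9 for filtering and MACS2 2.1.1.20160309 for peak calling, whose threshold was q = 0.05. The deposited peak lists give a fold enrichment (a ratio over local background, with no control library stated) and the −log10 of the q-value, neither scaled between libraries by the authors. The authors' deposited table of differential regions in Δl(3)mbt against WT OSCs holds log2 fold changes and was not used.

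Promoters (1 kb either side of the TSSs of 18277 genes, Ensembl release on the same assembly) and regions (merged peaks) with a peak in at least 2 libraries were fitted with limma 3.58.1 in R 4.3.3 (lmFit, contrasts, eBayes with a trend) over all 9 libraries and 4 group means. A library without a peak was set to a fold enrichment of 1. Calls needed a Benjamini-Hochberg adjusted p below 0.05 and a 1.5-fold difference on this log2 scale. Centring raised measured OSC values, lowered measured ovary values and left libraries without a peak at 1. Differences at features with peaks in OSCs only are therefore larger than in the raw fold enrichments. At dpr10, peaks of 2.43 and 2.50 in Δl(3)mbt OSCs and none in WT OSCs gave a fitted difference of 3.12-fold. The ovary value is the mean of both ovary groups and the OSC value that of both OSC groups. The fit was tested on simulated data.

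The members, the lists and the tests were chosen with earlier results of these data known. Values per library are given for members called by the promoter fit, open in every library or in all libraries of a single material, among the 5 strongest, or known for their binding or behaviour, and for the 5 regions with the largest difference or the highest fold enrichment. The study describes its replicates as distinct samples, without saying whether those of a cell line were separate cultures, and p-values measure the spread between these libraries, which may be technical. Alternatives were other promoter widths (0.5 and 0.2 kb), −log10 q of at least 10, equal numbers of peaks (16588), other floors, scalings and filters, WT OSCs alone as the reference, the OSC replicate number as a block, merged lists and leaving out each library. Counting a peak for the nearest TSS alone and leaving out peaks of 100 bases or narrower were added after seeing the data. nos was not matched in the annotation.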

Additional observations from a re-analysis of the deposited data

How the results depend on the processing

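Of the values for single genes and regions, 641 comparisons with an alternative stayed on their side of the threshold, 84 lost a call and 17 gained one, and no called value changed sign. Promoters lower in ovaries (14) numbered 9 of the 17 then fitted with equal numbers of peaks (background 13.1%), 8 of 17 with peaks of −log10 q of at least 10 (11.6%) and 7 of 24 with WT OSCs alone as the reference (11.2%), and 7 to 16 when 1 library was left out. Promoters higher in ovaries (1) numbered 2 with absent peaks set to the lowest fold enrichment, with equal numbers of peaks, with promoters of 0.2 or 0.5 kb, with quantile normalization or with −log10 q as the score, 3 without centring, and 1 to 3 with a library left out. For Δl(3)mbt against WT OSCs, promoters called higher (0) numbered 1 with equal numbers of peaks (DIP-theta), 1 with quantile normalization (dpr9) and 0 to 7 with a library left out. Regions higher in ovaries (14) numbered 8 with WT OSCs alone and 3 without narrow peaks, and 7 to 14 with a library left out. Regions lower in ovaries (64) numbered 126 with the lowest fold enrichment as the floor (background 51.9%), 32 of the 63 then fitted with equal numbers of peaks (21.7%), 31 of 61 with strict peaks (21.2%) and 34 with WT OSCs alone (15.1%), and 35 to 117 with a library left out. Regions higher in Δl(3)mbt OSCs (8) numbered 0 with that floor or with no filter, 3 with equal numbers, 4 with quantile normalization and 2 with strict peaks, and 0 to 32 with a library left out, and regions lower (2) numbered 0 with that floor, with no filter, with equal numbers, with strict peaks or without narrow peaks and 0 to 2 with a library left out. Between strains, 1 region was higher and 1 lower with equal numbers, 1 lower with strict peaks, and 0 to 3 regions and 0 to 1 promoters were lower with a library left out. Genes with a promoter peak in every library (5) numbered 3 with promoters of 0.2 kb, 1 with strict peaks, 2 with equal numbers and 9 in the merged lists, and 5 to 6 with a library left out. Genes with none (4) numbered 12 with strict peaks or equal numbers and 7 without narrow peaks, and 4 to 7 with a library left out. A feature with peaks in 2 libraries only was no longer fitted when 1 of them was left out. The causes of the other changes were not tested.

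With the OSC replicate number as a term (replicate block), 1 promoter was higher in Δl(3)mbt OSCs (dpr10, background 0.454%), against 0 without it, and 8 regions were higher and 3 lower. Same-numbered OSC libraries deviated together (r = 0.54 over promoters), but with 2 pairs the numbers are not known to pair the samples, and the peak names in the second list of each OSC genotype carry replicate numbers that differ from the labels and from each other.

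The lists give no read depth, so a promoter without a peak was not detectable as a peak and is not shown to be closed.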
